A study of Drosophila melanogaster with 10 samples.

Results

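Drosophila finds food, mates and danger through 2 large families of receptors, the gustatory receptors (Gr) of taste neurons and the odorant receptors (Or) of olfactory neurons. Their genes were followed here in SL2 cells, an embryo-derived Drosophila melanogaster line with markers of blood cells, after knockdown of Tip60. A gene was taken as a member if a probe set carried its symbol alone, in the form Gr or Or, digits and a letter, however dim the signal was. This gave 125 probe sets for 112 genes, 56 of them Gr genes with 63 probe sets and 56 Or genes with 62 probe sets, out of 11981 genes named on the array. Another 4 probe sets that name several genes, with a Gr or Or gene among them, were left out, and 0 of them was called. RNA was measured on 10 Affymetrix arrays, 1 for each sample. Of these, 6 came from cells given double-stranded RNA (dsRNA) against Tip60 and 4 from cells mock-treated with dsRNA against eGFP, a jellyfish sequence with no fly target. The Tip60 arrays used 3 dsRNAs, 2 arrays each, named by their position in the Tip60 sequence: 1321-1618, 190-807 and 603-1116. The last pair shares 205 nucleotides. All cells received 10 µg of dsRNA, were grown at 26°C and were harvested after 5 days. The labels do not state whether arrays with the same treatment were separate cultures, so every p-value here reflects variation among these 10 arrays and part of that may be technical.

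Each olfactory neuron usually makes 1 or a few odorant receptors, which work as ion channels together with the shared coreceptor Orco, and taste neurons make small sets of gustatory receptors for sugars, bitter compounds or carbon dioxide. Both families are known mainly from sense organs, although some gustatory receptors also work in other cells, and most of the genes are silent in most tissues. Tip60 is the histone acetyltransferase of a chromatin complex that acetylates histones and exchanges histone variants, so the question put to these genes was whether silent sensory genes became detectable when it was depleted. A silent gene still gives its probe set some signal, and the array's own non-fly control probe sets show how large that signal is and how it moves.

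Tip60 itself had a signal of 209 to 400 with a median of 289 on the 6 Tip60 dsRNA arrays, against 1339, 1315, 1163 and 1138 on the eGFP arrays. The groups did not overlap, and the log2 change was -2.04 (exact permutation p = 0.00476, 0.00952 adjusted over 4 measures, two-sided, the smallest p that 6 arrays against 4 allow). The 70 non-fly controls that receive no spike-in were higher by 0.56 in mean log2 signal on Tip60 dsRNA arrays (exact permutation p = 0.0381, adjusted 0.0381), with 4 of 6 arrays above all 4 eGFP arrays. The hybridization spike-ins were higher by 0.55 (exact permutation p = 0.0143, adjusted 0.019) and those added as poly-A RNA by 0.76 (exact permutation p = 0.00476, adjusted 0.00952). Since every array was scaled by its submitters to 1 trimmed mean of 1000, changes are relative to that mean. The first array of dsRNA 190-807 stood apart on the second principal component (57.0, against -15.7 to 3.55 on the other 9 arrays). Leaving it out left 7 receptor probe sets called higher and 1 lower, as with it.

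Few receptor probe sets were called. Of the 125 probe sets, 7 were called higher and 1 lower (limma, adjusted p under 0.05), where 19.5% of all 18769 fly probe sets were called, 10.2% higher and 9.27% lower. The 8 calls are 6.4% of the members, a smaller share than in the background. Gr probe sets gave 5 of the higher calls and the lower one, among 63, and Or probe sets gave 2 higher calls among 62. In 6 probe sets all Tip60 dsRNA arrays lay above all eGFP arrays and in 1 all lay below, against 8.35% and 7.85% of all fly probe sets. In RNA from whole cultures, fewer cells making a transcript and less of it per cell cannot be told apart.

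Most receptor probe sets were dim, and dim probe sets are seldom called. The median member signal over the 10 arrays was 23.0, against 61.0 for fly probe sets and 15.2 for the non-fly controls. Of the 111 members with a mean signal under 64, 3 were called higher and 0 lower, where 3.24% of all fly probe sets that dim were called higher and 0.063% lower, so the members' share (2.7%) is near the background. Of the 14 members at 64 or more, 4 were called higher and 1 lower, where 17.5% and 18.7% of such fly probe sets were. The fit's standard error had a median of 0.80 log2 units in the dim members and 0.22 in the others, so only large changes could be called in the dim ones.

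The median log2 change of the members was 0.48 (quartiles 0.05 and 1.05), with 96 of 125 (76.8%) above 0. The non-fly controls, which have no fly gene to change, had a median of 0.61 (quartiles 0.04 and 1.12), with 53 of 70 (75.7%) above 0 and 0 called by limma (5 at an unadjusted p under 0.05, against 15 members). All fly probe sets together had a median of 0.21, and those under a signal of 64 had 0.56. The sign of the members' median depended on the scaling, since quantile normalization gave -0.04 for the members beside -0.03 for all fly probe sets, and scaling to the poly-A spike-ins gave -0.28 beside -0.55.

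On single arrays, the receptors and the controls kept their order on 9 of 10 arrays. The median signal of the 125 members was 36.3, 35.5, 28.7, 27.4, 56.0 and 24.5 on the Tip60 dsRNA arrays, in the order 1321-1618, 190-807 and 603-1116 with 2 arrays each. It was 18.0, 26.5, 24.8 and 28.3 on the eGFP arrays. The groups overlap, and the first array of dsRNA 603-1116 is the highest. The median of the controls was 20.7, 12.6, 21.4, 27.8, 26.1 and 9.87 on the same Tip60 dsRNA arrays, against 9.97, 7.14, 12.1 and 20.2 on the eGFP arrays. The second array of dsRNA 190-807 is the one where the control median lies above the member median.

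**Figure D1:**
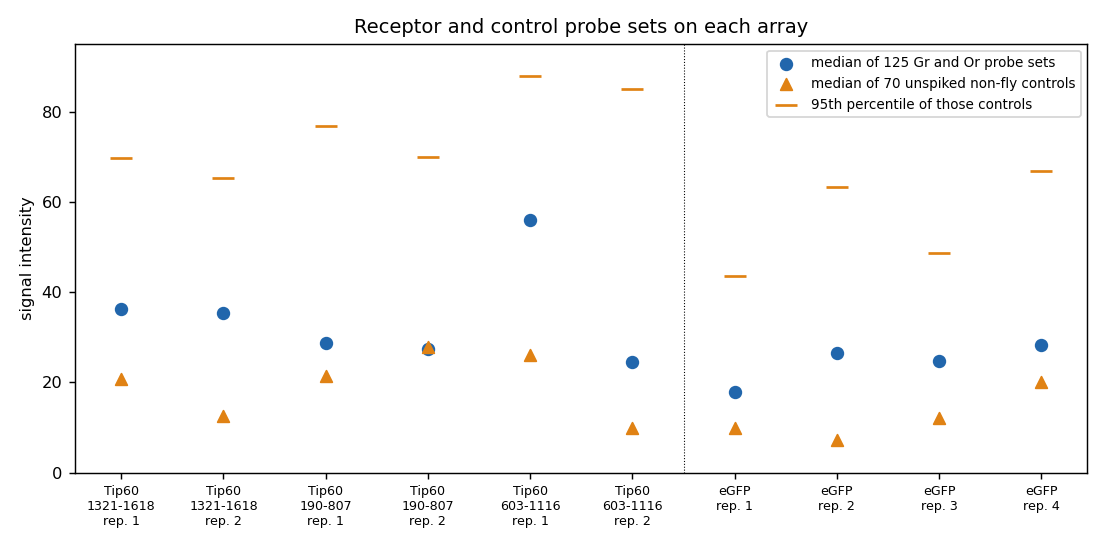
Median signal intensity of the 125 Gr and Or probe sets (circles) and of the 70 unspiked non-fly controls (triangles), with the 95th percentile of those controls (dashes), on each array; the 6 Tip60 dsRNA arrays are left of the dotted line and the 4 eGFP arrays right of it. The member medians run from 24.5 to 56.0 on Tip60 dsRNA arrays and from 18.0 to 28.3 on eGFP arrays, and lie under the 95th percentile of the controls on every array.

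Each member was then set against the 15 controls nearest to it in mean signal, which was possible for the 114 members whose signal lay in the range of the controls (2.31 to 73.8). The member's log2 change minus the median change of those controls had a median of -0.10 (quartiles -0.49 and 0.47), with 49 members above their controls and 65 below. With the 9 nearest controls the median was 0.08, with 61 above and 53 below, so its sign depended on that number. Few controls reach the upper part of the range. Among the 85 members at or under the 95th percentile of control means, a limit added after the data were seen, the median was -0.07 (40 above, 45 below). When each probe set in this range was corrected on every array by its nearest controls, 0 members and 0 fly probe sets were called. The same probe sets without that correction gave 0 members and 14 fly probe sets, so the correction itself ended 0 receptor calls.

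**Figure D2:**
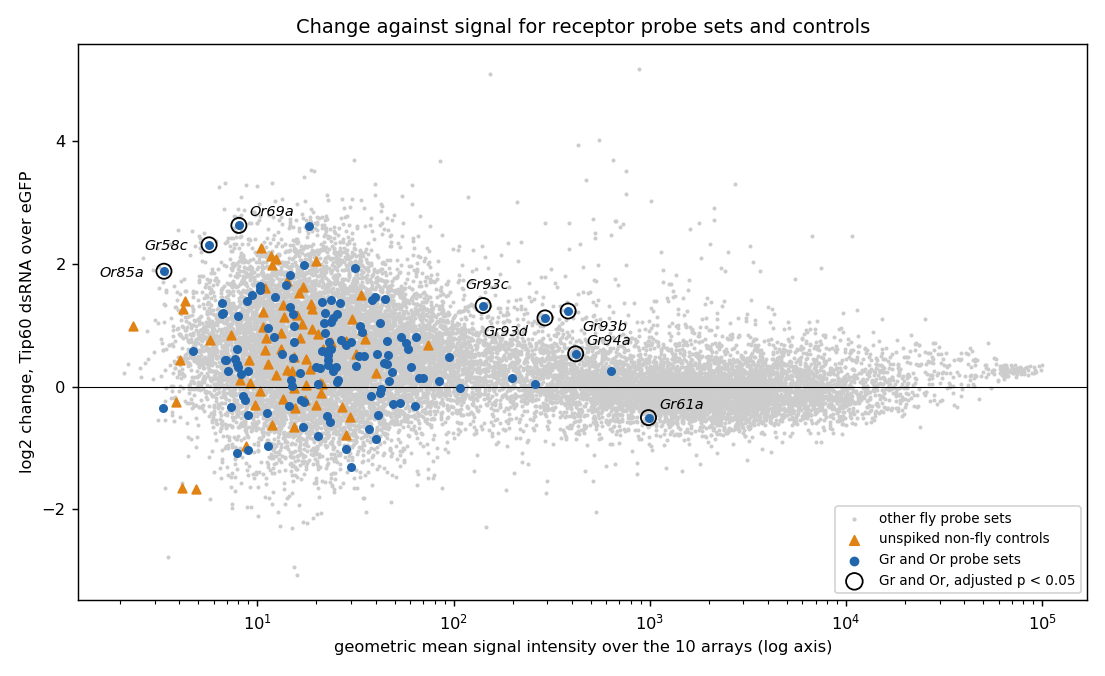
Log2 change of Tip60 dsRNA over eGFP (vertical axis) against the geometric mean signal intensity over the 10 arrays (log axis) for the Gr and Or probe sets (circles), the unspiked non-fly controls (triangles) and all other fly probe sets (grey points), with the 8 called members ringed and named. The dim members are spread as the controls are (SD 0.80 for members in the control range and 0.84 for controls), and 5 of the 8 calls are brighter than every control; for the 3 dim calls the height shows a ratio of signals at the level of the controls.

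No receptor was above the controls on all Tip60 dsRNA arrays and on no eGFP array. A probe set was counted as clear on an array when it exceeded the 95th percentile of the non-fly controls there, a limit of 65.3 to 88.0 on Tip60 dsRNA arrays and of 43.5 to 66.8 on eGFP arrays. By this measure 0 members were clear on all 6 Tip60 dsRNA arrays and on no eGFP array (14 fly probe sets were), and 0 showed the opposite (4 fly probe sets did). In number, 18 to 34 members were clear on each Tip60 dsRNA array and 22 to 30 on each eGFP array. Of the 125 members 62 were clear on no array, where 4810 of the 18769 fly probe sets were. The same 9 members were clear on all 10 arrays, where 8005 fly probe sets were: Gr5a, Gr61a, Gr77a, Gr93b, Gr93c, Gr93d, Gr94a, Or1a and Or43b. Or67b was clear on all 4 eGFP arrays but not on all Tip60 dsRNA arrays, as its signal on the second array of dsRNA 190-807 was 30.5. A further 17 members were clear on 1 or more of the 6 Tip60 dsRNA arrays and on no eGFP array (1865 fly probe sets were), on at most 3 arrays each. Among them Or98b, Or22a, Gr8a and Or92a were clear on both arrays of dsRNA 603-1116, and Gr28b on both of dsRNA 190-807. In turn 9 members were clear on 1 or more of the 4 eGFP arrays and on no Tip60 dsRNA array (794 fly probe sets were). Of the 9 probe sets clear on all arrays, 6 belong to genes that overlap another annotated gene in the RefSeq table, where 31 of all 112 member genes do, and the position of the probes within the genes was not used here.

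**Figure D3:**
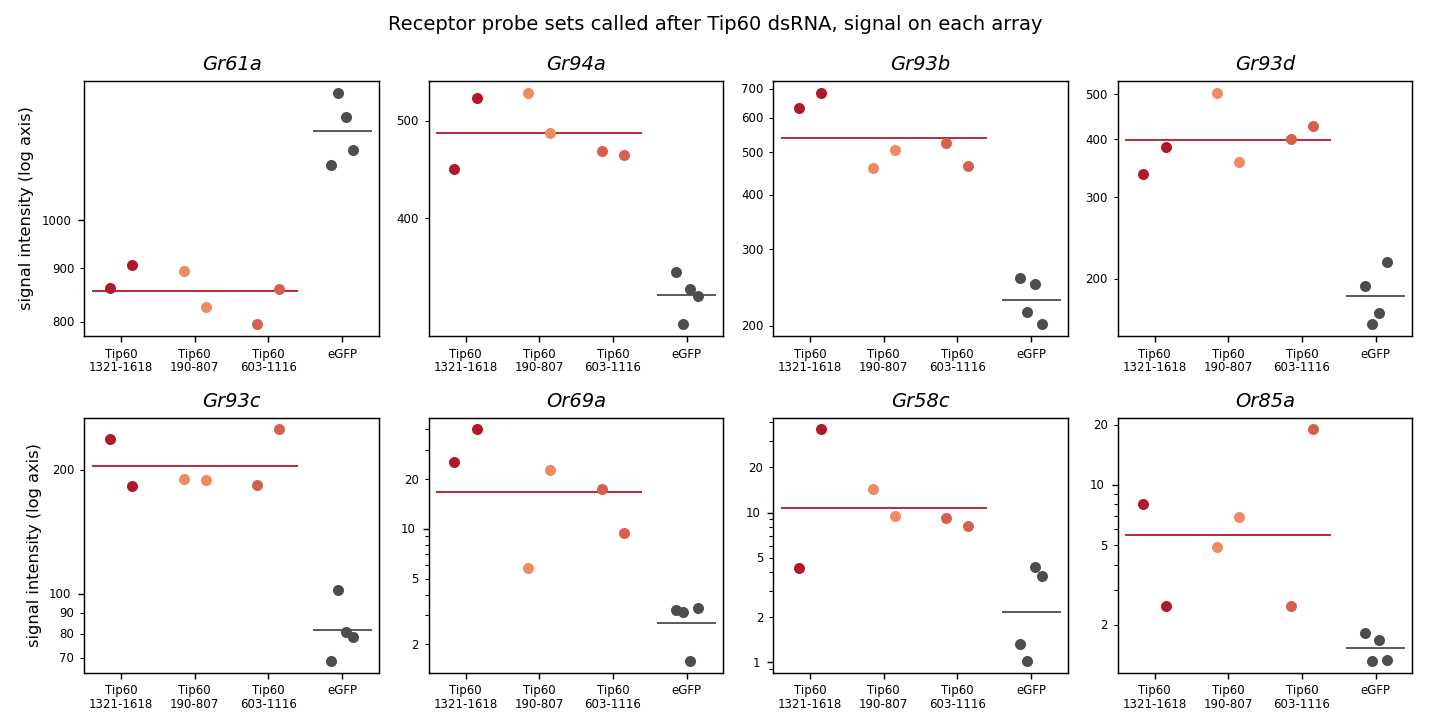
Signal intensity (log axes, each panel with its own range) of the 8 called receptor probe sets on every array, with the 3 Tip60 dsRNAs left of eGFP in each panel; horizontal lines are geometric means of the 6 Tip60 dsRNA and the 4 eGFP arrays. Gr93b, Gr93c, Gr93d and Gr94a have higher signals on all Tip60 dsRNA arrays and Gr61a lower ones, while Or69a, Gr58c and Or85a have signals of 40.03 or less on every array.

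Of the 8 calls, 3 came from neighbouring genes, Gr93b, Gr93c and Gr93d, which stand side by side on the chromosome and belong to the gustatory receptor family. Gr93b had signals of 631 and 686 with dsRNA 1321-1618, 460 and 506 with 190-807, and 527 and 466 with 603-1116, against 257, 215, 250 and 201 with eGFP. Every Tip60 dsRNA array was above every eGFP array, and both arrays of dsRNA 1321-1618 were the highest. The mean was 546 ± 92.4 (SD, n = 6) against 231 ± 26.8 (SD, n = 4), a log2 change of 1.23 (SE 0.14; limma adjusted p = 2.77e-06), or 2.35-fold. The changes of all 3 genes were relative to a scale on which the poly-A spike-ins were 0.76 higher: scaled to those, Gr93b had 0.47, Gr93c 0.56 and Gr93d 0.36, and the calls were lost (limma adjusted p = 0.077, 0.234 and 0.263). They were also lost with the hybridization spike-ins or the non-fly controls as the scale.

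Gr93c had signals of 238, 183, 190, 189, 184 and 251 on the Tip60 dsRNA arrays in the same order, against 68.7, 102, 80.8 and 78.4 on the eGFP arrays. Again the groups did not overlap, and the highest arrays came from dsRNAs 603-1116 and 1321-1618. The mean was 206 ± 30.2 (SD, n = 6) against 82.5 ± 14.0 (SD, n = 4), a log2 change of 1.32 (SE 0.24; limma adjusted p = 0.000464).

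Gr93d had signals of 337, 385, 505, 357, 402 and 429 on the Tip60 dsRNA arrays, against 193, 159, 169 and 218 on the eGFP arrays. The groups did not overlap, and the first array of dsRNA 190-807 was the highest. The mean was 402 ± 59.5 (SD, n = 6) against 185 ± 26.1 (SD, n = 4), a log2 change of 1.12 (SE 0.16; limma adjusted p = 3.06e-05). The RefSeq table places an antisense RNA gene, asRNA:CR44087, over Gr93d.

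The next gene with a probe set on the far side of Gr93d is glec, which encodes gliolectin, a carbohydrate-binding protein of the cell surface. It had signals of 3963, 3360, 3156, 3699, 3686 and 3402 on the Tip60 dsRNA arrays, against 1458, 1270, 1277 and 1393 on the eGFP arrays. The groups were far apart, and the log2 change was 1.39 (SE 0.07; limma adjusted p = 3.63e-11). The gene after glec, lsn, looked up after its value was seen, averaged 1901 ± 118 (SD, n = 6) in Tip60 dsRNA cells and 1859 ± 79.7 (SD, n = 4) in eGFP cells, a log2 change of 0.03 (limma adjusted p = 0.805). On the other side, Gr93a, a receptor needed for the response to caffeine, has a pair of probe sets, both at the level of the controls. They were not called (log2 differences 0.53, SE 0.89, and -0.46, SE 0.85; limma adjusted p = 0.747 and 0.771).

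**Figure D4:**
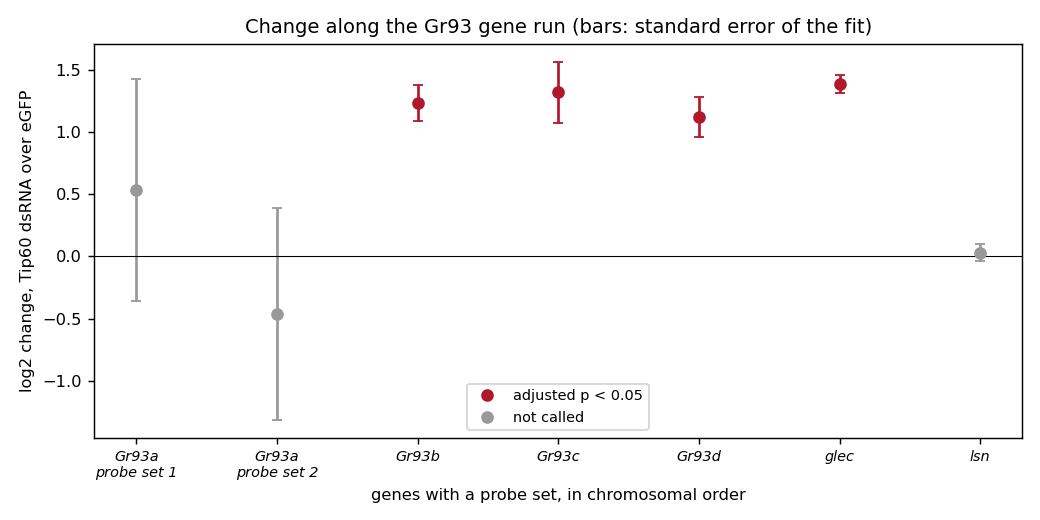
Log2 change of Tip60 dsRNA over eGFP (vertical axis, bars are the standard error of the limma fit) for the genes of the Gr93 run that have a probe set, in chromosomal order. Gr93b, Gr93c, Gr93d and glec were called, at 1.12 to 1.39, while the Gr93a probe sets (0.53 and -0.46) and lsn (0.03) were not.

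Gr94a, another gustatory receptor gene, had signals of 448, 526, 533, 487, 467 and 462 on the Tip60 dsRNA arrays, against 354, 314, 340 and 335 on the eGFP arrays. The groups did not overlap. The means of 487 ± 35.4 (SD, n = 6) and 336 ± 16.7 (SD, n = 4) gave a log2 change of 0.54 (SE 0.11; limma adjusted p = 0.0017). The gene overlaps p53, which encodes a transcription factor of the damage response. One p53 probe set was higher by 0.29 (limma adjusted p = 0.00283) and the other was not called (0.72, limma adjusted p = 0.279). The change of Gr94a was smaller than the shift of the controls: it was not called when arrays were centred on the median fly probe set (0.03), and its sign turned when arrays were centred on the non-fly controls (-0.15) or when either spike-in set, hybridization (-0.01) or poly-A (-0.22), gave the scale. Ctns, the neighbour on the other side, had log2 changes of -0.00 and -0.54, neither called.

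Gr61a, a receptor for sugars such as glucose, was the one member called lower. It had signals of 862, 906, 893, 827, 795 and 859 on the Tip60 dsRNA arrays, against 1128, 1322, 1254 and 1167 on the eGFP arrays. The groups did not overlap. The mean was 857 ± 41.1 (SD, n = 6) against 1218 ± 87.3 (SD, n = 4), a log2 change of -0.51 (SE 0.08; limma adjusted p = 7.86e-05), or 0.705-fold. The neighbours JMJD5 (0.23, limma adjusted p = 0.0744) and Cep290 (limma adjusted p = 0.682) were not called.

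The other calls, Or69a, Gr58c and Or85a, had signals under the 95th percentile of the controls on all 10 arrays, so their signals and tests are given with no size of change. Or69a, an antennal odorant receptor gene with alternative forms, had signals of 25.2, 40.03, 5.79, 22.6, 17.4 and 9.37 on the Tip60 dsRNA arrays, against 3.24, 3.12, 1.58 and 3.30 on the eGFP arrays. The groups did not overlap, but the Tip60 dsRNA arrays spanned a wide range (limma adjusted p = 0.0107). The call was lost with quantile normalization (limma adjusted p = 0.0577), cyclic loess (0.0619), non-fly centring (0.264) and scaling to either spike-in set (0.0544 for hybridization, 0.0661 for poly-A). Of the gene's 3 probe sets, the other two were not called.

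Gr58c had signals of 4.26, 35.9, 14.2, 9.45, 9.25 and 8.18 on the Tip60 dsRNA arrays, against 1.33, 1.02, 4.32 and 3.76 on the eGFP arrays. The groups overlap, as the first array of dsRNA 1321-1618 lies under the highest eGFP array. The adjusted p was 0.0251 (limma), and the call was lost without eGFP array 1 or 2, where the adjusted p reached 0.109, and under all 6 other scalings (limma adjusted p from 0.0817 to 0.35). Gr58b beside it was not called (limma adjusted p = 0.453), and CG9304 on the other side was higher by 0.36 (limma adjusted p = 0.0208).

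Or85a, an antennal odorant receptor gene, had signals of 8.05, 2.48, 4.90, 6.88, 2.49 and 18.9 on the Tip60 dsRNA arrays, against 1.83, 1.32, 1.69 and 1.33 on the eGFP arrays. The groups did not overlap, and the second array of dsRNA 603-1116 was the highest. The adjusted p was 0.034 (limma), and with each array dropped in turn the call held in 3 of 10 fits, the adjusted p running from 0.0204 to 0.0891: it was lost without any of the eGFP arrays, the first array of dsRNA 1321-1618, or the second array of 190-807 or of 603-1116. It was also lost under all 6 other scalings (limma adjusted p from 0.161 to 0.516). The gene overlaps Poxm, whose probe sets were not called. Nor were CG7443 beside Or85a or the neighbours of Or69a, CG10752 and CG10748.

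Receptors of known role gave 1 call, that of Gr61a. The carbon dioxide receptor is made of Gr21a and Gr63a. Gr21a had signals of 57.6 to 95.4 with a median of 84.8 on the Tip60 dsRNA arrays, against 24.4, 51.7, 53.7 and 64.1 on the eGFP arrays, with groups that overlap (limma adjusted p = 0.216). Gr63a stayed dim, at 2.96 to 37.1 with a median of 6.79, against 5.12, 10.8, 4.65 and 4.40 on the eGFP arrays (limma adjusted p = 0.563).

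Among 5 sugar receptors, Gr61a apart, Gr5a (the trehalose receptor) was clear on all arrays, with 184 to 268 and a median of 194 on the Tip60 dsRNA arrays, against 210, 166, 182 and 196 on the eGFP arrays (log2 change 0.14, limma adjusted p = 0.697). Gr43a, a fructose receptor that also serves as a nutrient sensor in the brain, averaged 63.0 ± 23.4 (SD, n = 6) in Tip60 dsRNA cells and 75.4 ± 24.3 (SD, n = 4) in eGFP cells. Gr64a averaged 35.1 ± 30.8 (SD, n = 6) in Tip60 dsRNA cells and 28.5 ± 21.4 (SD, n = 4) in eGFP cells, and Gr64f 58.0 ± 45.4 (SD, n = 6) in Tip60 dsRNA cells and 54.1 ± 24.1 (SD, n = 4) in eGFP cells. None of these was called. The 5 receptors that many bitter-sensing neurons share had 9 probe sets and 0 calls. By the brightest probe set, mean signals in Tip60 dsRNA cells were 51.5 for Gr32a, 10.2 for Gr33a, 47.5 for Gr39a, 34.6 for Gr66a and 26.1 for Gr89a. In eGFP cells they were 47.4 for Gr32a, 14.2 for Gr33a, 29.2 for Gr39a, 25.1 for Gr66a and 29.7 for Gr89a. In each of them the groups overlap.

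The 4 odorant receptors for fly pheromones and fly odours were also dim. Or67d, the receptor for cis-vaccenyl acetate, averaged 30.9 ± 20.4 (SD, n = 6) in Tip60 dsRNA cells and 9.95 ± 10.3 (SD, n = 4) in eGFP cells. Or65a averaged 38.5 in Tip60 dsRNA cells and 21.3 in eGFP cells, Or47b 8.25 in Tip60 dsRNA cells and 6.08 in eGFP cells, and Or88a 71.6 in Tip60 dsRNA cells and 51.5 in eGFP cells. None of the 4 was called (limma adjusted p from 0.146 to 0.701). Orco, the coreceptor without which most odorant receptors do not reach the dendrite, is not a member by its symbol. It had signals of 7.67 to 138 on the Tip60 dsRNA arrays (52.0 ± 45.0, SD, n = 6), against 21.7, 55.3, 5.14 and 9.14 on the eGFP arrays (22.8 ± 22.8, SD, n = 4). The groups overlap (limma adjusted p = 0.326).

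Clear signals without a call were seen for Or1a, Or43b and Gr77a besides Gr5a. Or1a, a receptor of larval olfactory neurons, had signals of 670, 515, 735, 744, 745 and 692 on the Tip60 dsRNA arrays, against 538, 565, 560 and 610 on the eGFP arrays. Of the 6 Tip60 dsRNA arrays 5 were above all eGFP arrays, and the second array of dsRNA 1321-1618 was below them. The log2 change was 0.26 (SE 0.11; limma adjusted p = 0.118), 0.34 without that array (limma adjusted p = 0.015), and -0.50 when arrays were scaled to the poly-A spike-ins (limma adjusted p = 0.0207). Or43b averaged 265 ± 31.6 (SD, n = 6) in Tip60 dsRNA cells and 256 ± 34.1 (SD, n = 4) in eGFP cells. Gr77a averaged 108 ± 14.6 (SD, n = 6) in Tip60 dsRNA cells and 112 ± 31.8 (SD, n = 4) in eGFP cells. Neither passed the test (log2 changes 0.05 and -0.03).

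Among uncalled members, Gr98d, Or33a and Or98b had the highest ratios of signals, all from eGFP signals at the level of the controls. Gr98d had signals of 54.1, 42.3, 101, 4.99, 50.3 and 51.3 on the Tip60 dsRNA arrays, against 1.80, 2.23, 38.6 and 9.22 on the eGFP arrays (limma adjusted p = 0.0613). The second array of dsRNA 190-807 and eGFP array 3 lie in the range of the other group, and without either the adjusted p was 0.0134 or 0.015. Or33a averaged 35.9 ± 18.9 (SD, n = 6) in Tip60 dsRNA cells and 13.1 ± 13.3 (SD, n = 4) in eGFP cells (limma adjusted p = 0.129). Or98b had signals of 69.9, 18.2, 58.1, 30.5, 106 and 98.2 on the Tip60 dsRNA arrays, against 32.7, 17.9, 13.6 and 4.85 on the eGFP arrays (limma adjusted p = 0.063). The groups overlap in both. Or98b passed without eGFP array 1 (limma adjusted p = 0.0446), without the second array of dsRNA 1321-1618 (0.0283), and where the dimmest 20% of probe sets were left out (0.0489).

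In the other direction, Gr10a averaged 39.8 ± 41.5 (SD, n = 6) in Tip60 dsRNA cells and 61.2 ± 39.6 (SD, n = 4) in eGFP cells (limma adjusted p = 0.369). Or47a averaged 6.57 ± 3.44 (SD, n = 6) in Tip60 dsRNA cells and 21.9 ± 29.1 (SD, n = 4) in eGFP cells (limma adjusted p = 0.391), and 1 of the 3 probe sets of Or46a 8.15 ± 4.22 (SD, n = 6) in Tip60 dsRNA cells and 21.3 ± 22.5 (SD, n = 4) in eGFP cells (limma adjusted p = 0.445). The probe sets of Or46a disagreed in sign, as did those of Gr39a, Gr93a and Or35a, and none of them was called. In all, 6 receptor genes had several probe sets (Gr23a, Gr39a, Gr93a, Or35a, Or46a and Or69a), and Or69a was the one with a call.

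The 3 Tip60 dsRNAs gave the same sign for all of the brighter calls. With dsRNA 1321-1618, 5 members were higher and 1 lower than with eGFP, where 6.22% of all fly probe sets were higher and 6.75% lower. With 190-807, 4 were higher and 1 lower, against 6.05% and 5.97%. With 603-1116, 7 were higher and 1 lower, against 7.51% and 7.37%. Gr93b, Gr93c, Gr93d, Gr94a and Gr61a were called with each of the 3, which share the eGFP arrays. The log2 change of Gr93b was 1.52 with 1321-1618, 1.07 with 190-807 and 1.11 with 603-1116, and that of Gr61a was -0.46, -0.50 and -0.56 in the same order. Or69a, by 1 of its 3 probe sets, was also called with 1321-1618. Gr39a, by 1 of its 5 probe sets, and Gr98a and Or98b were called with 603-1116. The mean signals of these 4 probe sets were 8.05, 6.61, 6.58 and 31.3 in that order, all within the range of the controls. A test of any difference among the dsRNAs called 0 members (limma F-test; 8 at an unadjusted p under 0.05, lowest adjusted p 0.505) and 0.0426% of all fly probe sets. On 2 arrays a dsRNA, a difference between reagents was not detectable in the members.

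Other sensory gene families were read beside the background of 10.2% higher and 9.27% lower. The ionotropic receptor and odorant-binding protein genes were mostly dim, with median signals of 18.3 and 21.0. Of all fly probe sets with a signal under 64, 3.24% were called higher and 0.063% lower. Of 53 ionotropic receptor genes, 2 (3.77%) were called higher and 0 lower. Ir21a, known from cool-sensing neurons, averaged 52.9 ± 17.7 (SD, n = 6) in Tip60 dsRNA cells and 14.5 ± 13.9 (SD, n = 4) in eGFP cells, and Ir67a 67.4 ± 28.5 (SD, n = 6) in Tip60 dsRNA cells and 18.2 ± 15.2 (SD, n = 4) in eGFP cells, means within the signals of the controls. Of 47 odorant-binding protein genes, which encode small carriers of odorants, 5 (10.6%) were called higher and 1 lower. Obp57e (22.8 in Tip60 dsRNA cells and 3.13 in eGFP cells) and Obp56f (18.9 in Tip60 dsRNA cells and 1.99 in eGFP cells) were called higher at the level of the controls. So was Obp50d (54.1 in Tip60 dsRNA cells and 18.6 in eGFP cells). Obp49a and Obp99b were called higher at signals above the controls. Obp49a averaged 358 in Tip60 dsRNA cells and 175 in eGFP cells (log2 change 1.04, limma adjusted p = 0.000175). Obp99b averaged 192 in Tip60 dsRNA cells and 105 in eGFP cells (log2 change 0.84, limma adjusted p = 0.0338). Scaled to the poly-A spike-ins, 1 odorant-binding protein gene was called higher and 3 lower. Obp99c averaged 984 ± 236 (SD, n = 6) in Tip60 dsRNA cells and 1755 ± 179 (SD, n = 4) in eGFP cells, a log2 change of -0.87 (limma adjusted p = 0.000183). With quantile normalization 0 ionotropic receptor genes were called and 2 odorant-binding protein genes were higher. Of 5 genes of olfactory neurons and their support cells, pdm3, a POU-domain transcription factor, was called higher (295 ± 76.9 in Tip60 dsRNA cells, n = 6, and 90.7 ± 47.3 in eGFP cells, n = 4, SD; log2 change 1.83, limma adjusted p = 0.00026). The 1 rhodopsin gene on the list was not called.

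Markers of other cells were read beside these, each gene by its brightest probe set. Of 8 neuron markers, 1 (12.5%) was called higher, nrv3 (0.41), against 10.2% of all fly probe sets, and it was not called with quantile normalization. Their summed signal was 1564 to 2063 on Tip60 dsRNA arrays and 1402 to 1673 on eGFP arrays. Of 3 glia markers, moody was called lower (-0.65), and their sum was 2308 to 2872 on Tip60 dsRNA arrays and 3435 to 4078 on eGFP arrays. Most of that sum was moody, with means of 2364 in Tip60 dsRNA cells and 3699 in eGFP cells. The dim repo (0.60) and gcm (0.98) had the other sign and were not called. Of 17 testis markers mia was called lower (-0.36) and nht higher, with nht at the level of the controls (39.9 in Tip60 dsRNA cells and 6.11 in eGFP cells). All 10 hemocyte markers, the cell type SL2 cells resemble, were above the controls on every eGFP array. All 10 were called higher, against 17.5% of fly probe sets with a signal of 64 or more, and their median log2 change was 0.64. That median was below the 0.76 of the poly-A spike-ins, and scaled to those 2 of the 10 were called higher and 1 lower. With quantile normalization 10 were called higher (median 0.55), and with cyclic loess 9 (median 0.61). Centring on the median fly probe set left 3 called higher, hybridization scaling 3 and non-fly centring 1. No marker was listed at 0, and the part of any other cell type in the receptor values was not tested.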

How the data were processed

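The authors deposited 1 table of linear probe set signal intensities, made with GCOS 1.4 per the submitters' processing notes; how background was removed is not stated in any source used here. The 2% trimmed mean was 1000 on each array, so every signal is relative to that mean. The cause of the higher dim signals on Tip60 dsRNA arrays was not tested. Intensities were taken to log2 with no further scaling, and 18769 fly probe sets and 70 unspiked non-fly controls (known by their names) were fitted with no filter (limma 3.58.1 in R 4.3.3, intensity trend, Benjamini-Hochberg adjustment, called at adjusted p under 0.05). Contrasts of each dsRNA came from a fit of 4 groups. The number of arrays limits the precision.

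Members and lists were chosen with earlier results of these data known, and the limits of 64 and of the 95th percentile, the overlap count and the Gr93 run after their values were seen. Named members were the called ones, the 5 brightest, the 3 uncalled with the largest change each way, the receptors of known role, and the neighbours of called members. Symbols came from the platform annotation, and all 125 members matched the RefSeq table (Release 6 plus ISO1 MT), used for names and neighbours. The alternatives were filters, 6 scalings, correction by like controls, variance models, 1 probe set a gene (for the members' median), and leaving out arrays or dsRNAs.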

Additional observations from a re-analysis of the deposited data

Results flagged for a closer look

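Of 30 named members, with 2 groups each, 9 values lay far from the rest of their group by Dixon's 95% limit. The limit was applied to linear signals, not log2, and flags about 1 in 20 groups by chance only where values are normally distributed. Whether linear signals this dim follow that distribution was not tested, so the 9 cannot be set against that rate. On Tip60 dsRNA arrays, the flagged values were Gr58c (35.9), Or1a (515) and Gr63a (37.1) on the second array of dsRNA 1321-1618, Or85a (18.9) on the second array of dsRNA 603-1116 and Gr33a (29.1) on the first array of dsRNA 603-1116. On eGFP arrays, they were Or69a (1.58) on array 3, Or47a (65.5) on array 4, Gr63a (10.8) on array 2 and Or47b (10.2) on array 1. Or1a is the one of these with a signal above the controls, and it was called higher without its low array, as given above.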

How the results depend on the processing

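The calls of Gr93b, Gr93c, Gr93d and Gr61a held under quantile normalization, cyclic loess, centring on the median fly probe set, both filters, both variance models, 4 group means and every fit without 1 array or 1 dsRNA. Without 1 array, members called higher numbered 5 to 9 and lower 1, their median was 0.35 to 0.58, and all calls numbered 3060 to 3728. Members called higher fell to 4 with the dimmest 40% of probe sets left out, and were 4 with quantile normalization, cyclic loess or centring on the median fly probe set. They were 0 with arrays centred on the non-fly controls, scaled by either spike-in set (hybridization or poly-A), or corrected by like controls, and 0 on those same probe sets uncorrected, an alternative added after the data were seen. Members called lower were 0 with non-fly centring, like-control correction and those probe sets uncorrected, and 5 with poly-A scaling. All calls were 87 with non-fly centring, 6713 with poly-A scaling, 0 with like-control correction and 14 uncorrected. With hybridization scaling Gr93b had 0.69 (limma adjusted p = 0.065), Gr93c 0.77 (0.126) and Gr93d 0.57 (0.134), while Gr61a was the 1 call. With non-fly centring Gr93b had 0.55 (limma adjusted p = 0.563) and Gr61a -1.19 (0.144). The members' median was -0.044 with quantile normalization, -0.041 with cyclic loess, -0.027 with median centring, -0.21 with non-fly centring, -0.069 with hybridization scaling, -0.28 with poly-A scaling and -0.22 with like-control correction. The median of all fly probe sets, 0.21 as deposited, was -0.03 with quantile normalization, -0.02 with cyclic loess, -0.29 with median centring, -0.47 with non-fly centring, -0.33 with hybridization and -0.55 with poly-A scaling. All calls split into 1923 higher and 1739 lower as deposited, 397 and 5044 with median centring, 33 and 54 with non-fly centring, 256 and 3998 with hybridization and 217 and 6496 with poly-A scaling. Gr94a reversed to -0.15 with non-fly centring, -0.012 with hybridization and -0.22 with poly-A scaling, and Or1a to -0.50 with poly-A scaling. Of these moves, the counts on fewer probe sets follow in part from the smaller number tested. For the others the cause was not tested. Only signals above the controls allow a small change to be called. With 1 probe set a gene the members' median was 0.50. Array pairs as a random block left 7 members higher and 1 lower and 3711 calls in all. The titles of the arrays share the numbers 2 and 3 between eGFP and Tip60, with nothing in the labels on what a number stands for. With the first number of the title as a replicate block, added after the data were seen, 5 members were higher and 1 lower and all calls numbered 2535. Arrays of 1 number did not deviate together (correlations over probe sets of -0.02 to 0.07 between the groups), so the numbers were not taken to pair samples.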
